A study of Mus musculus with 18 samples.

Results

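34 genes were higher in every library of the TFEB mutant WEHI-231 clones than in any library of the parental cells. They were chosen by the read counts themselves. A gene was kept if its level was at least 1 count per 1000000 counts of the library (CPM) in all 12 clone libraries and if the lowest of these 12 levels was at least 2 times the highest level over the 6 parental libraries. Of 55487 genes listed, 11200 had at least 1 CPM in all 12 clone libraries and 35 met both conditions, of which Sgk1 was set aside. The difference in level between clones and parental cells is therefore how the 34 genes were selected, and it is given below as a description without a test.

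The RNA-seq was made from WEHI-231, an established mouse B lymphoma line of immature B cell character that carries IgM as its B cell receptor (BCR). Unedited parental cells were set beside A-59 and B-20, which are TFEB-deficient lines that each grew from a single cell after CRISPR/Cas9 cutting of the Tfeb gene, so a genotype here is 1 clone and no TFEB-intact clone stands beside them. Cells of each genotype were left untreated (0 h) or received 10 µg/ml anti-IgM F(ab')2 fragments, which ligate the BCR, for 6 h or 18 h. Each of the 9 groups held 2 libraries, and the libraries held between 11223588 and 29655262 counts.

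TFEB is a basic helix-loop-helix leucine zipper factor of the MiT/TFE family that binds E-box letters, most closely the CLEAR element found before many lysosomal and autophagy genes. In resting cells it is held in the cytosol, and in B cells BCR ligation brings it into the nucleus. None of the 34 genes is a member of the MiT/TFE family.

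The libraries had the profile of B cells. All 10 B-lineage markers looked at, among them Cd79a and Pax5, were at 1 CPM or more in all 18 libraries, while the summed level of 9 T and NK cell markers was at most 1.19 CPM and that of 5 erythroid markers at most 1.72 CPM. Tfeb RNA, the targeted transcript, lay between 79.4 and 99.6 CPM in parental cells and between 25.1 and 53.7 CPM in the clones. In none of the 9 groups were the replicates the same library, since their counts differed by more than sampling noise, with a chi-square over its degrees of freedom between 3.57 in parental cells at 6 h and 58.2 in B-20 at 6 h.

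Some markers of other tissues were also present. The summed level of 8 epithelial markers was 31.8 to 60.6 CPM in parental cells, 87.2 to 130.1 CPM in clone A-59 and 50.2 to 76.6 CPM in clone B-20. This sum came from Epcam, Krt18 and Cldn4, which parental cells also expressed, and from Cldn7, which is one of the 34 genes. Krt8, Krt19, Cdh1 and Cldn3 never exceeded 0.362 CPM, and 2 of the 8 markers had at most 3 counts in all libraries. The sum over 8 fibroblast and endothelial markers, most of it Pecam1, was 23.3 to 64.2 CPM in parental cells, 57.8 to 164.5 CPM in clone A-59 and 38.6 to 119.2 CPM in clone B-20, with 4 of the 8 at 3 counts or fewer throughout. For 10 myeloid markers the sum was 3.28 to 12.6 CPM, 8.57 to 29.6 CPM and 3.50 to 9.10 CPM in the same order, with Lyz2, Cd14, S100a8 and S100a9 at no more than 1 count in any library. The part of these markers in the levels of the 34 genes was not tested. In bulk RNA a change in the number of cells with a transcript and a change in its amount per cell cannot be told apart.

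31 of the 34 genes code for proteins, 2 are long non-coding RNAs and 1 is a processed pseudogene. All 34 passed the filter on low counts, but 6 of them did so through the clone libraries alone, and 22 had at least 10 counts in every library. Just inside the threshold were Spata13 and Slc6a12, whose lowest clone level was 2.02 and 2.14 times the highest parental level. The nearest genes outside were Gm29695, Eps8 and Arl5c, at 1.85, 1.82 and 1.80 times. Eps8, an actin-capping signalling adaptor, thus fell just short with 4.54 CPM as its lowest clone level against 2.49 CPM as its highest parental level.

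**Figure D1:**
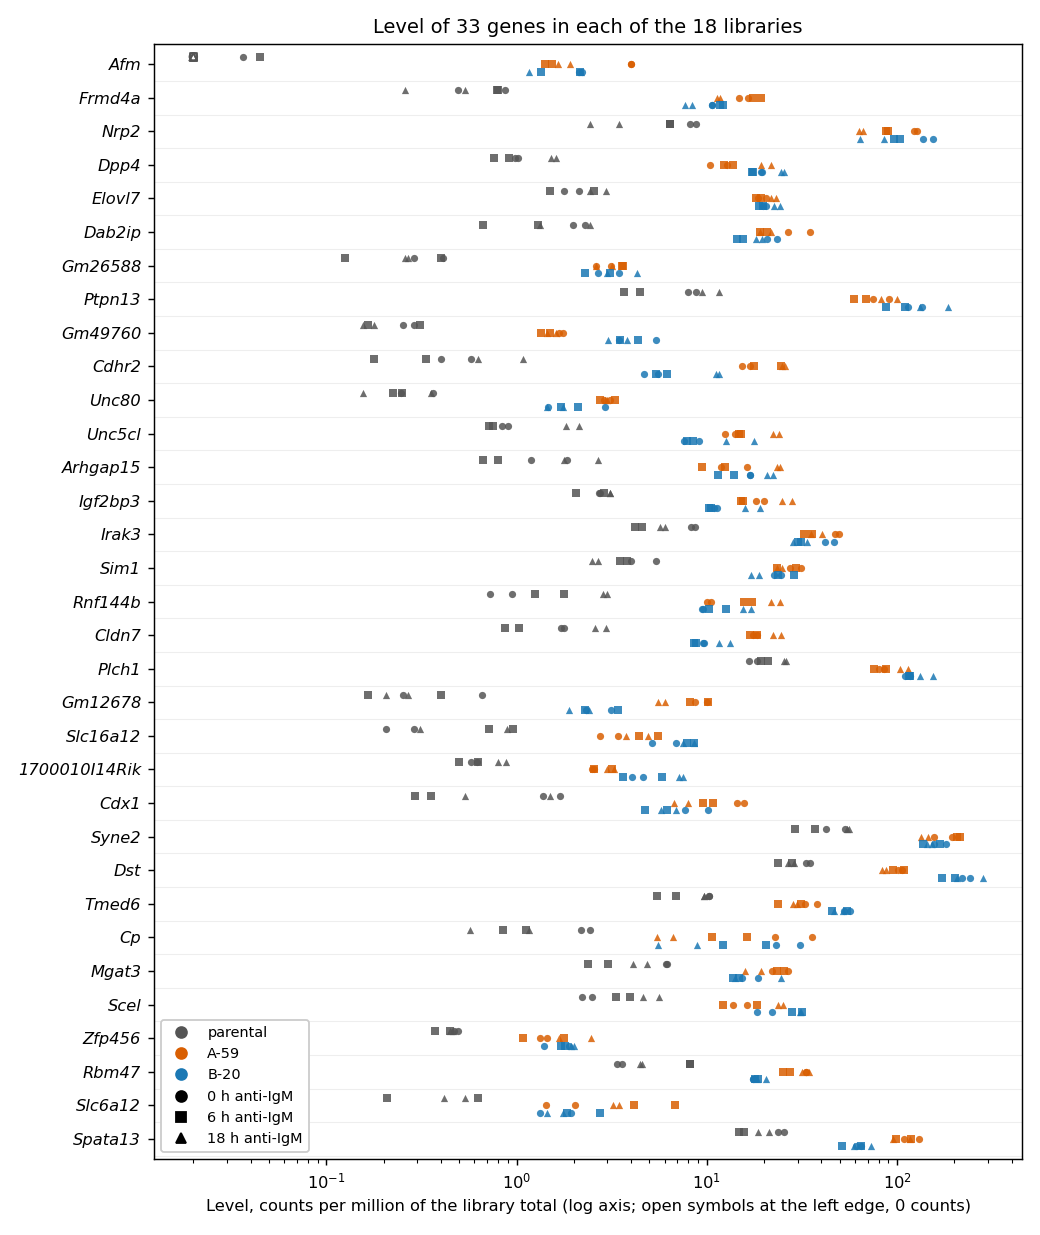
Level of 33 of the 34 genes (rows, ordered by the ratio used to choose them) in each library, in CPM on a log axis. Colour gives the genotype and symbol shape the hours of anti-IgM, each point is 1 library, and open symbols at the left edge are libraries without a count. Parental points lie left of every clone point in all rows, as the choice of genes requires, with the widest gap for Afm and the narrowest for Spata13.

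Surface receptors, channels, transporters and adhesion proteins made up 7 of the genes. Nrp2 (chr1:62703317-62818692, GRCm38), which encodes neuropilin 2, a co-receptor for class 3 semaphorins and VEGF-C, had 2.43, 6.41 and 8.74 CPM as the lowest, median and highest of the parental libraries. Its lowest, median and highest levels were 63.0, 88.8 and 127 CPM in clone A-59 and 64.0, 100.2 and 156 CPM in clone B-20. Neuropilin 2 RNA was thus present in parental cells, and the median over clone libraries was 14.6 times the parental median. Dpp4 (chr2:62330073-62412315) encodes CD26, a serine peptidase of the cell surface, and ran from 0.758 to 1.60 CPM in parental cells with a median of 1.0 CPM. In A-59 it ran from 10.4 to 21.8 CPM with a median of 13.2 CPM, and in B-20 from 17.3 to 25.6 CPM with a median of 19.4 CPM. Over all times together the A-59 and B-20 levels of Dpp4 overlapped, but at each time both B-20 libraries were above both A-59 libraries.

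Cdhr2 (chr13:54701463-54736662), a cadherin-like protein that links microvilli of the brush border, had a parental range of 0.178 to 1.09 CPM and a median of 0.487 CPM. In A-59 its range was 15.3 to 25.6 CPM with a median of 21.2 CPM, and in B-20 4.66 to 11.6 CPM with a median of 5.84 CPM. Every A-59 library was above every B-20 library. Cldn7 (chr11:69964779-69967886), a claudin of tight junctions, was ordered in the same way, with medians of 1.74 CPM in parental cells, 18.4 CPM in clone A-59 and 9.65 CPM in clone B-20 and with ranges of 0.873 to 2.94, 16.8 to 24.5 and 8.59 to 13.2 CPM. Among the transporters, Slc16a12, of the monocarboxylate transporter family, ranged from 0.206 to 0.956 CPM around a median of 0.512 CPM in parental cells, from 2.75 to 5.51 around 4.09 CPM in clone A-59 and from 5.13 to 8.54 around 7.71 CPM in clone B-20. Slc6a12, a betaine and GABA transporter, had 0.0411 to 0.625 CPM in parental cells with a median of 0.311 CPM, 1.42 to 6.81 CPM in clone A-59 with a median of 3.33 CPM and 1.33 to 2.75 CPM in clone B-20 with a median of 1.80 CPM. At 0 h the Slc6a12 level rested on 3 parental counts in all, so that the ratio to parental cells was 30.9 in A-59 (95% exact interval of counting error, 10.2 to 152) and 28 in B-20 (9.05 to 140), intervals that again are no test. Unc80, a subunit of the NALCN sodium leak channel, ranged from 0.155 to 0.363 CPM in parental cells and from 1.45 to 3.31 CPM in the clones.

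9 of the genes encode regulators and scaffolds of intracellular signalling. Ptpn13 (chr5:103425192-103598361), a tyrosine phosphatase with FERM and PDZ domains, had lowest, median and highest levels of 3.66, 8.37 and 11.6 CPM in parental cells, 59.5, 79.1 and 100 CPM in clone A-59 and 87.6, 123 and 186 CPM in clone B-20. Frmd4a (chr2:4017650-4614043), a FERM domain scaffold of cell polarity, had 0.259, 0.662 and 0.870 CPM in parental cells, 11.3, 15.6 and 19.3 CPM in clone A-59 and 7.72, 10.7 and 12.2 CPM in clone B-20. The FERM domain, which anchors proteins to the membrane and the cytoskeleton, is thus shared by a pair of the genes with the wider gaps.

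Dab2ip (chr2:35558446-35730994), a scaffold with Ras GTPase-activating function, had a parental range of 0.665 to 2.43 CPM with a median of 1.66 CPM against 19.0 to 34.9 CPM around 21.2 CPM in clone A-59 and 14.4 to 23.4 CPM around 18.8 CPM in clone B-20. Irak3 (chr10:120141648-120202130), the IRAK family member that dampens Toll-like receptor signalling, was at 4.20 to 8.68 CPM around 5.87 CPM in parental cells, 32.4 to 49.5 CPM around 38.0 CPM in clone A-59 and 28.5 to 46.6 CPM around 32.5 CPM in clone B-20. Over all times together the clones overlapped for both genes, but at each time both A-59 libraries were above both B-20 libraries for Irak3. Spata13 (chr14:60485168-60764556), a guanine nucleotide exchange factor for small GTPases, had medians of 19.8 CPM in parental cells, 113 CPM in clone A-59 and 62.7 CPM in clone B-20, with ranges of 14.8 to 25.5, 95.1 to 130 and 51.7 to 73.4 CPM. Its counterpart in function Arhgap15, a Rac GTPase-activating protein, ranged from 0.665 to 2.69 CPM in parental cells and from 9.43 to 24.2 CPM over the clones.

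Plch1 (chr3:63696199-63899503), a phospholipase C of the eta class, ranged from 16.7 to 26.1 CPM with a median of 20.2 CPM in parental cells, from 76.0 to 114 CPM with a median of 86.5 CPM in clone A-59 and from 111 to 154 CPM with a median of 117 CPM in clone B-20. Rnf144b, a ubiquitin ligase of the RING-between-RING class, ranged from 0.725 to 3.0 CPM around 1.52 CPM in parental cells, from 10.1 to 24.3 CPM around 16.5 CPM in clone A-59 and from 9.40 to 17.1 CPM around 11.5 CPM in clone B-20. Unc5cl, a death domain protein linked to NF-kB signalling, ranged from 0.714 to 2.14 CPM around 0.870 CPM in parental cells, from 12.4 to 24.1 CPM around 14.9 CPM in clone A-59 and from 7.58 to 17.7 CPM around 8.79 CPM in clone B-20. For Rnf144b the spread within each genotype followed the time of stimulation, and for Unc5cl the 18 h libraries were the highest in each genotype, as shown further on.

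Dst, Syne2 and Scel encode structural proteins. Dst (chr1:33907888-34308662) encodes dystonin, a very large linker of actin, intermediate filaments and microtubules, and had 23.8 to 34.8 CPM around a median of 28.4 CPM in parental cells, 83.3 to 109 CPM around 98.1 CPM in clone A-59 and 173 to 283 CPM around 213 CPM in clone B-20. Syne2 (chr12:75818318-76110928), a nesprin that joins the nucleus to the cytoskeleton, had 29.1 to 55.7 CPM around 47.9 CPM, 134 to 214 CPM around 176 CPM and 136 to 180 CPM around 154 CPM in the same order. The clones overlapped for Syne2 and not for Dst. Scel, which encodes sciellin, a precursor of the cornified envelope of keratinocytes, ranged from 2.22 to 5.58 CPM around 3.65 CPM in parental cells, from 12.2 to 25.2 CPM around 17.4 CPM in clone A-59 and from 18.3 to 31.8 CPM around 29.5 CPM in clone B-20.

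5 genes belong to secreted proteins, the secretory route and lipid synthesis. Afm (chr5:90518949-90553544) encodes afamin, a vitamin E binding plasma protein of the albumin family, and had at most 1 count in each parental library. A-59 libraries had 3.98 and 4.02 CPM before stimulation, 1.54 and 1.41 CPM after 6 h and 1.64 and 1.91 CPM after 18 h. B-20 libraries had 2.20 and 2.12 CPM before stimulation, 1.35 and 2.16 CPM after 6 h and 1.16 and 2.19 CPM after 18 h. At 18 h, when neither parental library had a count, the mean Afm level of A-59 was at least 8.41-fold, and that of B-20 at least 7.93-fold, higher than 3 counts per parental library would give. At 0 h, against 1 parental count, the ratio was 207 in A-59 (95% exact interval of counting error, 36.8 to 8225) and 112 in B-20 (19.4 to 4487). These intervals describe how few reads stand behind the ratio and are no test, since the gene was chosen by its level in the same libraries.

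Cp (chr3:19956933-20009750), which encodes ceruloplasmin, the copper-carrying ferroxidase, ranged from 0.569 to 2.43 CPM around a median of 1.14 CPM in parental cells, from 5.50 to 35.7 CPM around 13.5 CPM in clone A-59 and from 5.57 to 30.8 CPM around 16.3 CPM in clone B-20. Elovl7 (chr13:108214326-108287109), an elongase of long-chain fatty acids, was at 1.5 to 2.94 CPM around 2.29 CPM, 18.2 to 23.2 CPM around 19.9 CPM and 18.9 to 24.2 CPM around 20.02 CPM. Within a clone the libraries lay further apart for ceruloplasmin than for the elongase. Mgat3, which adds the bisecting N-acetylglucosamine to N-glycans, went from 2.37 to 6.21 CPM around 4.48 CPM in parental cells, from 15.9 to 26.6 CPM around 22.6 CPM in clone A-59 and from 13.7 to 24.5 CPM around 15.1 CPM in clone B-20. Tmed6, of the p24 family of secretory cargo proteins, ranged from 5.49 to 10.3 CPM in parental cells, 23.7 to 37.8 CPM in clone A-59 and 45.7 to 56.9 CPM in clone B-20.

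Another 5 genes encode nuclear and RNA-binding proteins. Sim1, a bHLH-PAS transcription factor known from the hypothalamus, ranged from 2.48 to 5.44 CPM around 3.64 CPM in parental cells, from 23.3 to 31.3 CPM around 26 CPM in clone A-59 and from 17.2 to 28.7 CPM around 23.1 CPM in clone B-20. Cdx1, a caudal homeobox factor of the gut, ranged from 0.291 to 1.69 CPM around 0.956 CPM, from 6.73 to 15.8 CPM around 10.2 CPM and from 4.74 to 10.2 CPM around 6.53 CPM. Rbm47, an RNA-binding protein and cofactor of RNA editing, ranged from 3.37 to 8.15 CPM around 4.50 CPM, from 25 to 34.4 CPM around 32.5 CPM and from 17.5 to 20.4 CPM around 18.2 CPM. Both clones were apart from each other for Rbm47 but not for Sim1. Igf2bp3, an mRNA-binding protein of fetal tissues, ranged from 2.05 to 3.12 CPM in parental cells, 15.1 to 28.1 CPM in clone A-59 and 10.2 to 19.1 CPM in clone B-20. Zfp456, a zinc finger gene, ranged from 0.374 to 0.494 CPM in parental cells and from 1.08 to 2.47 CPM over the clones. Zinc finger genes of its family share sequence, so that its counts are less certain.

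The remaining 4 genes are little known. The long non-coding RNA Gm26588 ranged from 0.125 to 0.411 CPM in parental cells around a median of 0.279 CPM, from 2.62 to 3.61 CPM in clone A-59 around 3.17 CPM and from 2.29 to 4.30 CPM in clone B-20 around 3.05 CPM. The long non-coding RNA Gm12678 ranged from 0.166 to 0.658 CPM around 0.261 CPM, from 5.55 to 10.1 CPM around 8.42 CPM and from 1.89 to 3.40 CPM around 2.37 CPM in the same order. Gm26588 overlapped between clones, whereas A-59 was above B-20 throughout for Gm12678. Gm49760, a processed pseudogene, had 0.155 to 0.312 CPM in parental cells around 0.216 CPM, 1.35 to 1.75 CPM in clone A-59 around 1.56 CPM and 3.04 to 5.39 CPM in clone B-20 around 3.64 CPM, and reads of its parent gene may be among its counts. The protein-coding 1700010I14Rik had 0.499 to 0.879 CPM around 0.621 CPM, 2.5 to 3.24 CPM around 2.76 CPM and 3.62 to 7.52 CPM around 5.23 CPM. Both of the latter were higher in every B-20 library than in every A-59 library.

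The libraries were not stranded, so a read from bases that 2 genes share cannot be assigned to either. 4 of the genes overlap a gene that was itself tested. Gm26588 lies at the Mgll locus, which encodes monoacylglycerol lipase, and Mgll was also higher in the clones, with 6.05 to 26.7 CPM in parental cells and 27.7 to 69.9 CPM in the clones, or log2 differences of 1.47 to 2.51 over the 6 clone-to-parental contrasts, 1 per clone and time. Gm26588 and Mgll reads cannot be separated where they share bases. Hps3 beside Cp and Malsu1 beside Igf2bp3 had log2 differences of 0.05 to 0.55 and -0.03 to 0.33. Gm26788 and Bend6, which overlap Dst, had log2 differences of 0.81 to 1.53 and 0.27 to 1.47 at levels of at most 6.89 and 1.59 CPM.

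Sequence before the start of each gene was looked at because MiT/TFE factors bind short, known letters. RefSeq windows (GRCm38.p6) from 250 bases before to 50 bases after a start were at hand for 30 of the 34 genes, 50 windows in all, and for 27025 genes of the mouse, 32851 windows. Both strands were searched. The CLEAR core TCACGTGA, which contains the E-box CACGTG, was in 1 of 50 windows (2%) and in 0.974% of all windows. The E-box CACGTG was in 4 of 50 windows (8%) and in 7.15% of all, and the MiT variant CATGTG in 2 of 50 (4%) and in 14.2% of all. The shares of the E-box and of its variant in these 50 windows thus lay near or below those of all windows. That of the CLEAR core was higher but rests on 1 window.

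The 6 windows with an E-box or its variant are shown because they hold every such match among the 30 genes with a window. Each runs 5′ to 3′ on the strand of the gene, with the matched letters in capitals (on the other strand for Nrp2, where CATGTG reads CACATG). They are Igf2bp3 (chr6:49214905-49215204, minus strand), Irak3 (chr10:120201548-120201847, minus strand), Arhgap15 (chr2:43748574-43748873, plus strand), Slc16a12 (chr19:34747279-34747578, minus strand), Nrp2 (chr1:62703067-62703366, plus strand) and Frmd4a (chr2:4017433-4017732, plus strand).
Igf2bp3: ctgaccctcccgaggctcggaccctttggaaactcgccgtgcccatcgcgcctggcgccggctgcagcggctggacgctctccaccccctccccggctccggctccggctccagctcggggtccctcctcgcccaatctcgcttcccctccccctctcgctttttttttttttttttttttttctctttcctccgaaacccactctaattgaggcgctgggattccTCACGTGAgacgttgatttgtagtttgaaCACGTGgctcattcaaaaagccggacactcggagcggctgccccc
Irak3: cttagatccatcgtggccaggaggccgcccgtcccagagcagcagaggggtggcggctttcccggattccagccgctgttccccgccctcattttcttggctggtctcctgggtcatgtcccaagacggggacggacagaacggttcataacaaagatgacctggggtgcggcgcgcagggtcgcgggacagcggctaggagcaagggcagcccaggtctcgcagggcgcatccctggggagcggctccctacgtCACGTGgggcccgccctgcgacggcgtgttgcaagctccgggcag
Arhgap15: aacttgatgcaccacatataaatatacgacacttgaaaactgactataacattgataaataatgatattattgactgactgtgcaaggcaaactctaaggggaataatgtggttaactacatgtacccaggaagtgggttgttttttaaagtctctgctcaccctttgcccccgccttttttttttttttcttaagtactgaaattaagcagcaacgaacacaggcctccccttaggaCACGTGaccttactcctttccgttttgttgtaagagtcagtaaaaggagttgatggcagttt
Slc16a12: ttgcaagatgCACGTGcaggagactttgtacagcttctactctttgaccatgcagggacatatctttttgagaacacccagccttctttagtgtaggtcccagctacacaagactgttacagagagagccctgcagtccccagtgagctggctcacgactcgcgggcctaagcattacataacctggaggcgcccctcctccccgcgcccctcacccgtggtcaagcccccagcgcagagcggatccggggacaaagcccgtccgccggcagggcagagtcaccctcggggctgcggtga
Nrp2: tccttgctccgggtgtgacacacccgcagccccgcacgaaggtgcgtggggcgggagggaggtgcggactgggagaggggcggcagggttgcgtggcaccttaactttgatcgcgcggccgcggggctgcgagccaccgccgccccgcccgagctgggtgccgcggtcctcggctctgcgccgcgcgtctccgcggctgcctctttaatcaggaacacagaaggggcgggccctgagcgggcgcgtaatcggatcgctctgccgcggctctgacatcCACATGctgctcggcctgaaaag
Frmd4a: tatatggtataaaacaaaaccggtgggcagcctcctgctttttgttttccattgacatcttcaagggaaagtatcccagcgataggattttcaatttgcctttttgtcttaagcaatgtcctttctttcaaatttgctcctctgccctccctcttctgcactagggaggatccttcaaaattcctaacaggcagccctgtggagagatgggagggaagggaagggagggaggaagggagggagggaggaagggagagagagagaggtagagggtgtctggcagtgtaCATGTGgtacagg
Igf2bp3 alone held the CLEAR core, with a second E-box nearby. A match describes the letters and does not show that a factor binds there.

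Other letters that B cell factors and stimulus-responsive factors bind were searched in the same windows. AP-1 letters TGANTCA were in 6% of the windows of the 34 genes and in 7.81% of all (Cp, Scel and Slc6a12), the CRE TGACGTCA in 2% and 1.79% (Cldn7), the octamer ATGCAAAT in 2% and 1.74% (Slc6a12) and the FoxO letters GTAAACA in 0 of 50 and 3.65%. The EBF letters TCCCNNGGG were in 7 of 50 windows (14%) against 6.56% of all, namely of Cldn7, Dpp4, Gm26588, Irak3, Plch1, Ptpn13 and Spata13. The letters GAAANNGAA of interferon response elements were in 9 of 50 windows (18%) against 8.56%, over 8 genes that include Irak3, Dpp4 and Igf2bp3. These shares are descriptions of 50 windows, several of which belong to the same gene.

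The 34 genes were spread over the genome. No pair of the 33 genes with RefSeq coordinates lay within 1000000 bases of each other. As neighbours the nearest tested gene on each side was taken, with no limit on distance. Distances ran from 338 bases (Elp5 beside Cldn7) to 3110166 bases (Agpat4 and 1700010I14Rik), so not all neighbours were close by. Of 66 neighbouring genes that were tested and are not among the 34, only Afp and Map2 were higher in both clones at all 3 times (adjusted p below 0.01 and a log2 fold change over 1 in all 6 comparisons of edgeR), and 0 were lower. Over all 15318 genes tested, 0.561% were higher and 0.783% lower by this rule. Afp, which encodes the fetal serum protein alpha-fetoprotein and lies 10042 bases from Afm in the albumin cluster, had 2.54 to 4.40 CPM in parental cells and 6.43 to 12 CPM in the clones, with log2 fold changes of 1.38 to 1.47. Map2, the microtubule-associated protein of dendrites 25332 bases from Unc80, had 1.16 to 2.64 CPM and 4.39 to 8.90 CPM, with log2 fold changes of 1.14 to 2.74. The median over neighbours of their median log2 difference was 0.13, beside -0.0042 over all genes tested.

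Long genes were frequent. The 31 protein-coding genes had a median gene body of 100700 bases against 24700 bases over 12111 protein-coding genes tested, and 51.6% of them against 11.7% spanned more than 100000 bases. Exon length and GC content were compared over genes of all classes, the 34 genes against 15191 tested genes with these values. The exon length was less different, with medians of 7438 and 5297 bases, as was the GC content of the longest transcript, at 47.9% and 49.1%. CPM is not divided by length, so a long transcript yields more counts at the same number of molecules, and the part of length in the choice of these genes was not tested.

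Relatives of the 34 genes mostly did not share their pattern. None of 18 other tested Toll-like receptor and IRAK genes, of 19 other FERM proteins and phosphatases, of 12 other iron and copper genes, of 10 other claudins and tight junction genes, of 8 other monocarboxylate transporters, of 7 other bHLH-PAS factors or of 4 other genes of the Dpp4 family was higher or lower in all 6 comparisons. Among 19 other semaphorin, plexin and neuropilin genes Plxna2 was higher, with 0.672 to 2.41 CPM in parental cells and 2.72 to 8.31 CPM in the clones, and Plxna1 was lower, with 2.76 to 5.35 CPM and 0.360 to 1.30 CPM. Both encode receptors that pair with neuropilins.

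Lists without a gene among the 34 gave single hits. The lists were chosen with earlier results of these data known, so a hit in them is a description and no test. Eps8 was 1 of 8 genes of its family and partners, the epithelial ETS factor Ehf 1 of 19 ETS genes, and Map2 1 of 11 microtubule-associated proteins. The kallikrein Klk4 was the only one of its family tested, at 0.998 to 3.92 CPM in parental cells and 6.89 to 37.5 CPM in the clones. Of 33 lysosomal hydrolases and membrane proteins, the class of genes for which TFEB is best known, 1 was higher in all 6 comparisons and 0 were lower. The exception was Ctse, the aspartic protease cathepsin E, at 3.79 to 9.80 CPM in parental cells and 11.7 to 29.0 CPM in the clones. None of the 3 MiT/TFE genes tested was higher or lower in all 6 comparisons, and the median of the lysosomal genes' median log2 difference was -0.17. Tfeb RNA was nonetheless lower in every clone library than in any parental library. It lay between 79.4 and 99.6 CPM in parental cells, 25.1 and 40.1 CPM in clone A-59 and 34.0 and 53.7 CPM in clone B-20.

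How the 34 genes responded to BCR stimulation is a separate question that the choice of genes did not use, although it set a floor on their clone levels and a ceiling on their parental levels at all times. Within each genotype, 6 h and 18 h of anti-IgM were compared with 0 h by edgeR's quasi-likelihood test over all 15318 genes, and a gene was called when its Benjamini-Hochberg adjusted p was below 0.01 and its log2 fold change beyond 1 in either direction. In parental cells, 4 of the 34 genes were called at 6 h, beside 2.62% of all genes, and 5 at 18 h, beside 10.3%. In A-59, 2 were called at 6 h beside 1.39%, and 4 at 18 h beside 8.76%. In B-20, 0 were called at 6 h beside 0.385%, and 2 at 18 h beside 4.8%. In B-20 at 6 h 10 of the 34 genes (29.4%) had an unadjusted edgeR p under 0.05, beside 14.9% of all genes, and DESeq2 also called 0. As shares of the 34 genes these were 11.8% and 14.7% in parental cells, 5.88% and 11.8% for A-59 and 0% and 5.88% for B-20, so that at 18 h the shares were near those of all genes. The 6 h and 18 h comparisons of a genotype use the same untreated libraries.

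**Figure D2:**
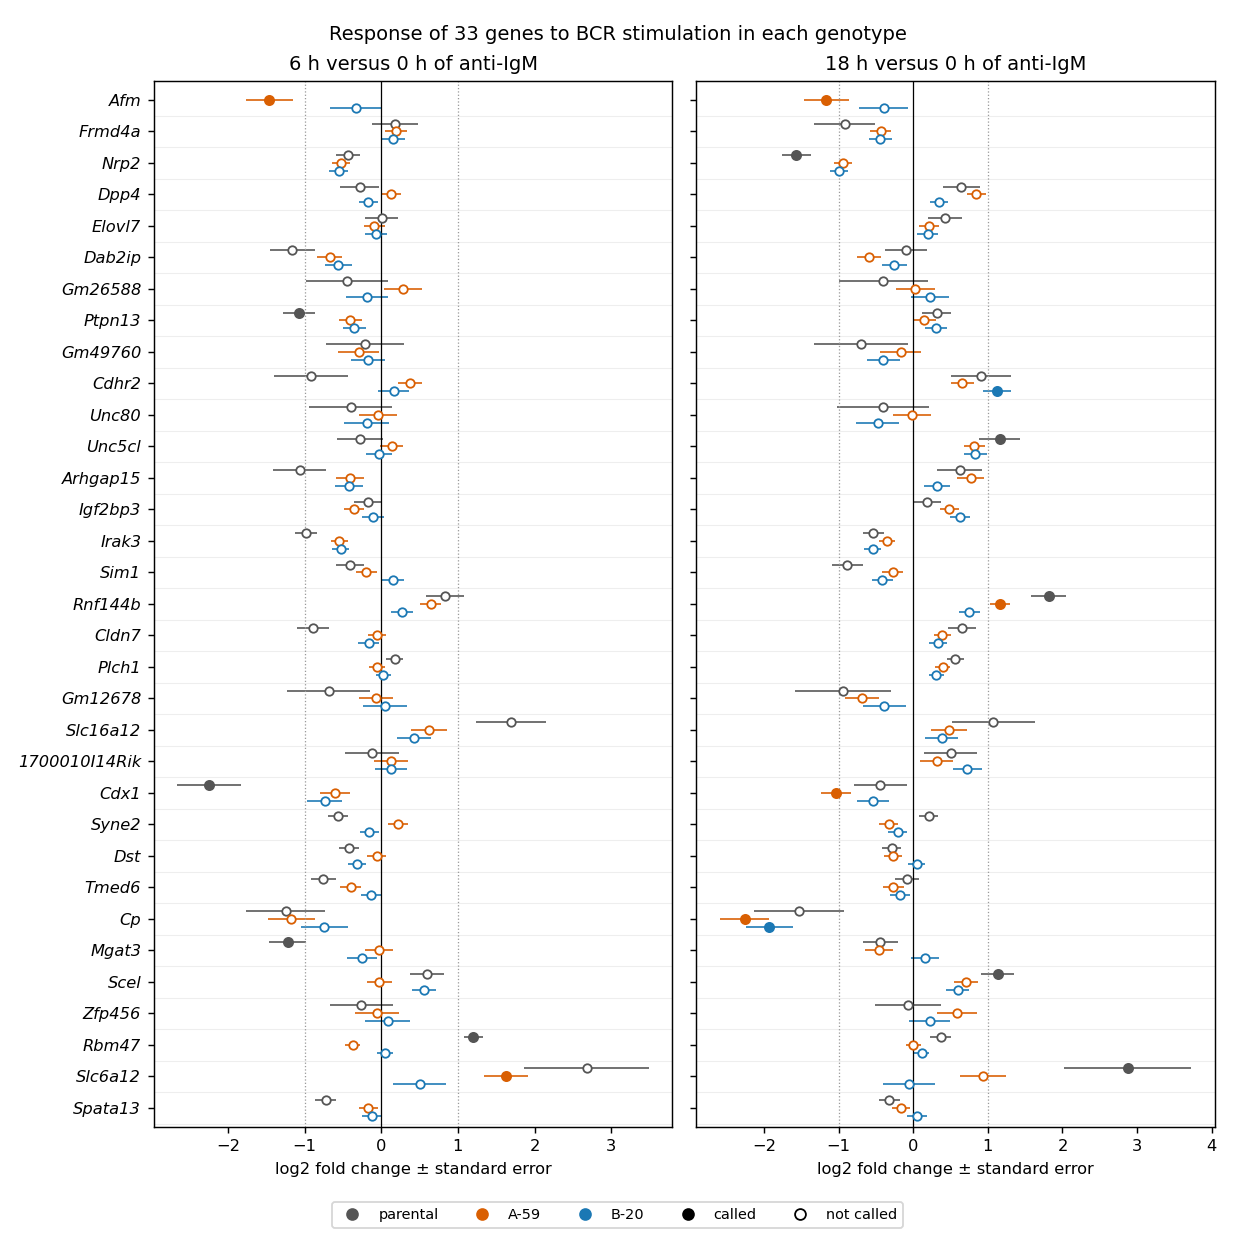
Log2 fold change with its standard error (edgeR) of 33 of the 34 genes at 6 h (left) and 18 h (right) of anti-IgM against 0 h, for each genotype by colour, with filled points for called genes and dotted lines at a log2 fold change of 1 in either direction. Afm in parental cells is left out because its libraries held at most 1 count. At 18 h Cp lay far to the left and Rnf144b to the right in each genotype, and at 6 h Rbm47 was called in parental cells alone.

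At 6 h in parental cells Rbm47 rose and Cdx1, Mgat3 and Ptpn13 fell. Rbm47 went from 3.37 and 3.58 CPM before stimulation to 8.12 and 8.15 CPM after 6 h, and the log2 fold change was 1.2 ± 0.12 (SE, edgeR adjusted p = 2.2e-06). Cdx1 went from 1.38 and 1.69 CPM to 0.357 and 0.291 CPM (-2.25 ± 0.41 on the log2 scale, edgeR adjusted p = 0.00085). Both were clear of any overlap between times. Mgat3 went from 6.13 and 6.21 CPM to 3.03 and 2.37 CPM (-1.22 ± 0.24, edgeR adjusted p = 0.0017). Ptpn13 went from 7.94 and 8.80 CPM to 4.46 and 3.66 CPM (-1.07 ± 0.21, edgeR adjusted p = 0.0016). The calls of the 3 falling genes depended on single libraries, and that of Rbm47 did not. Without parental replicate 2 of 0 h the edgeR adjusted p was 0.012 for Cdx1, 0.016 for Mgat3 and 0.023 for Ptpn13, without parental replicate 2 of 6 h it was 0.019, 0.039 and 0.035, and without parental replicate 1 of 0 h it was 0.011 for Mgat3. In either of the former cases 1 gene was left. Without a filter on low counts 8 genes were called, with Dab2ip, Arhgap15, Slc6a12 and Slc16a12 added. Dab2ip, a fall not called in the main fit, was also called by DESeq2 (-1.17, DESeq2 adjusted p = 0.0026). With GC correction it was called as well (-1.15, edgeR adjusted p = 0.0059).

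Several genes that missed the fold limit moved at 6 h in parental cells with an edgeR adjusted p below 0.01. Irak3 went from 8.27 and 8.68 CPM to 4.55 and 4.20 CPM, a log2 fold change of -0.98 ± 0.14 (edgeR adjusted p = 8.3e-05). For Cldn7, Tmed6, Spata13 and Syne2 the log2 fold changes were -0.90, -0.76, -0.73 and -0.56. The median log2 fold change over the 34 genes at 6 h was -0.40 for parental cells, -0.07 for A-59 and -0.14 for B-20, beside 0.01, 0.01 and 0.02 over all genes tested.

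After 18 h in parental cells Rnf144b, Unc5cl, Scel and Slc6a12 rose and Nrp2 fell. Rnf144b had 0.725 and 0.946 CPM before stimulation and 2.85 and 3.0 CPM after 18 h (log2 fold change 1.82 ± 0.23, edgeR adjusted p = 5.1e-06). Nrp2 had 8.74 and 8.19 CPM before stimulation and 3.47 and 2.43 CPM after 18 h (-1.57 ± 0.19, edgeR adjusted p = 3.2e-06). These calls held without each library in turn. Unc5cl had 0.834 and 0.905 CPM before stimulation and 2.14 and 1.81 CPM after 18 h (1.16 ± 0.27, edgeR adjusted p = 0.0018). Scel had 2.5 and 2.22 CPM before stimulation and 4.63 and 5.58 CPM after 18 h (1.13 ± 0.22, edgeR adjusted p = 0.00045). The call of Scel was lost without parental replicate 2 of 18 h (0.94, edgeR adjusted p = 0.025), and that of Unc5cl without parental replicate 1 of 0 h, replicate 1 of 18 h or replicate 2 of 18 h, with edgeR adjusted p of 0.022, 0.019 and 0.011. Slc6a12 had 3 counts over both parental libraries at 0 h and 14 at 18 h, a ratio of CPM of 7.92 (95% exact interval of counting error, 2.21 to 43.0), with an edgeR adjusted p of 0.0081. That call was lost without any 1 of the 4 parental libraries compared and also without any 1 of 6 others, both replicates of A-59 at 18 h, B-20 at 6 h and B-20 at 18 h, with edgeR adjusted p from 0.010 to 0.050. 3 genes remained called without parental replicate 1 of 0 h, 3 without replicate 1 of 18 h and 2 without replicate 2 of 18 h.

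In A-59 Cp had the log2 fold change furthest from 0 among the 34 genes. Its libraries had 22.9 and 35.7 CPM before stimulation, 10.6 and 16.3 CPM after 6 h and 5.50 and 6.68 CPM after 18 h, and the log2 fold change at 18 h was -2.26 ± 0.33 (edgeR adjusted p = 7.8e-05). Rnf144b rose from 10.6 and 10.1 CPM to 21.7 and 24.3 CPM after 18 h (1.16 ± 0.14, edgeR adjusted p = 2.0e-06). Both calls held without each library. Cdx1 fell from 15.8 and 14.4 CPM to 6.73 and 7.99 CPM (-1.03 ± 0.21, edgeR adjusted p = 0.00049), and missed the limits without A-59 replicate 1 of 0 h (-0.98, edgeR adjusted p = 0.0064) or replicate 1 of 18 h (-0.94, edgeR adjusted p = 0.011), either of which left 2 genes called. Afm, at the levels given above, had log2 fold changes of -1.46 ± 0.31 at 6 h (edgeR adjusted p = 0.0042) and -1.17 ± 0.30 at 18 h (edgeR adjusted p = 0.0048).

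The Afm calls were the least secure of those in A-59. Each was lost when any 1 of the 4 libraries compared was left out, with edgeR adjusted p of 0.011 to 0.033 at 6 h (A-59 replicates 1 and 2 of 0 h and of 6 h) and of 0.019 to 0.050 at 18 h (A-59 replicates 1 and 2 of 0 h and of 18 h). DESeq2 gave no adjusted p for Afm at 6 h and 0.018 at 18 h, and edgeR on the libraries compared alone gave 0.023 at 6 h. Slc6a12 in A-59 rose from 2.02 and 1.42 CPM before stimulation to 6.81 and 4.16 CPM after 6 h (1.63 ± 0.29, edgeR adjusted p = 0.0011). The edgeR adjusted p was 0.030 without A-59 replicate 2 of 0 h, 0.038 without A-59 replicate 1 of 6 h and 0.036 on the libraries compared alone. Without A-59 replicate 2 of 0 h or replicate 1 of 6 h 0 genes were called at 6 h, and without A-59 replicate 1 of 0 h or replicate 2 of 6 h 1 gene was.

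In B-20 Cp fell as well at 18 h, from 23.0 and 30.8 CPM to 5.57 and 8.89 CPM (-1.93 ± 0.32, edgeR adjusted p = 0.00034), and this held without each library. Parental Cp had 2.43 and 2.18 CPM before stimulation and 1.16 and 0.569 CPM after 18 h, a log2 fold change of -1.53 ± 0.61 that was not called (edgeR adjusted p = 0.053). It was called by DESeq2 (-1.49, adjusted p = 0.0094) and by edgeR on the libraries compared alone (-1.56, adjusted p = 0.0015). Ceruloplasmin RNA thus had lower values at 18 h in each genotype. Cdhr2 rose in B-20 from 4.66 and 5.52 CPM to 11.6 and 11.2 CPM (1.13 ± 0.19, edgeR adjusted p = 0.00013), but its log2 fold change was 0.98 without B-20 replicate 1 of 0 h and 0.97 with a correction for GC content, just under the limit. Without B-20 replicate 2 of 18 h 4 genes were called, with Nrp2 (-1.27) and Unc5cl (1.01) added.

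Several genes that were called in 1 genotype had the same sign in the others. Nrp2 at 18 h had log2 fold changes of -0.94 ± 0.12 in A-59 (edgeR adjusted p = 6.5e-06) and -0.99 ± 0.12 in B-20 (edgeR adjusted p = 7.9e-06), close to the fold limit. Rnf144b had 0.75 ± 0.14 in B-20 at 18 h (edgeR adjusted p = 0.00044). Unc5cl had 0.82 ± 0.14 for A-59 and 0.83 ± 0.15 for B-20, and Scel 0.71 ± 0.16 and 0.59 ± 0.16. A receptor, a ubiquitin ligase, a death domain protein and an envelope protein thus kept in the clones the direction they had in parental cells, at a higher level. Slc6a12, which was likewise called in parental cells at 18 h, did not do so in both clones. Its log2 fold change was 0.93 ± 0.31 for A-59 and -0.06 ± 0.35 for B-20. From 0 h to 18 h, 30 of the 34 genes (88.2%) had the same sign in A-59 and B-20, which share no library, beside 78.7% of all genes. From 0 h to 6 h the shares were 70.6% and 69.6%. With parental cells included, the sign was shared by 79.4% of the 34 genes and 71.0% of all genes at 18 h and by 55.9% and 52.5% at 6 h. The 18 h share counts Afm, whose parental libraries held at most 1 count and cannot give a sign. It also counts Unc80, Gm12678 and Gm49760, whose parental signs rest on few counts.

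**Figure D3:**
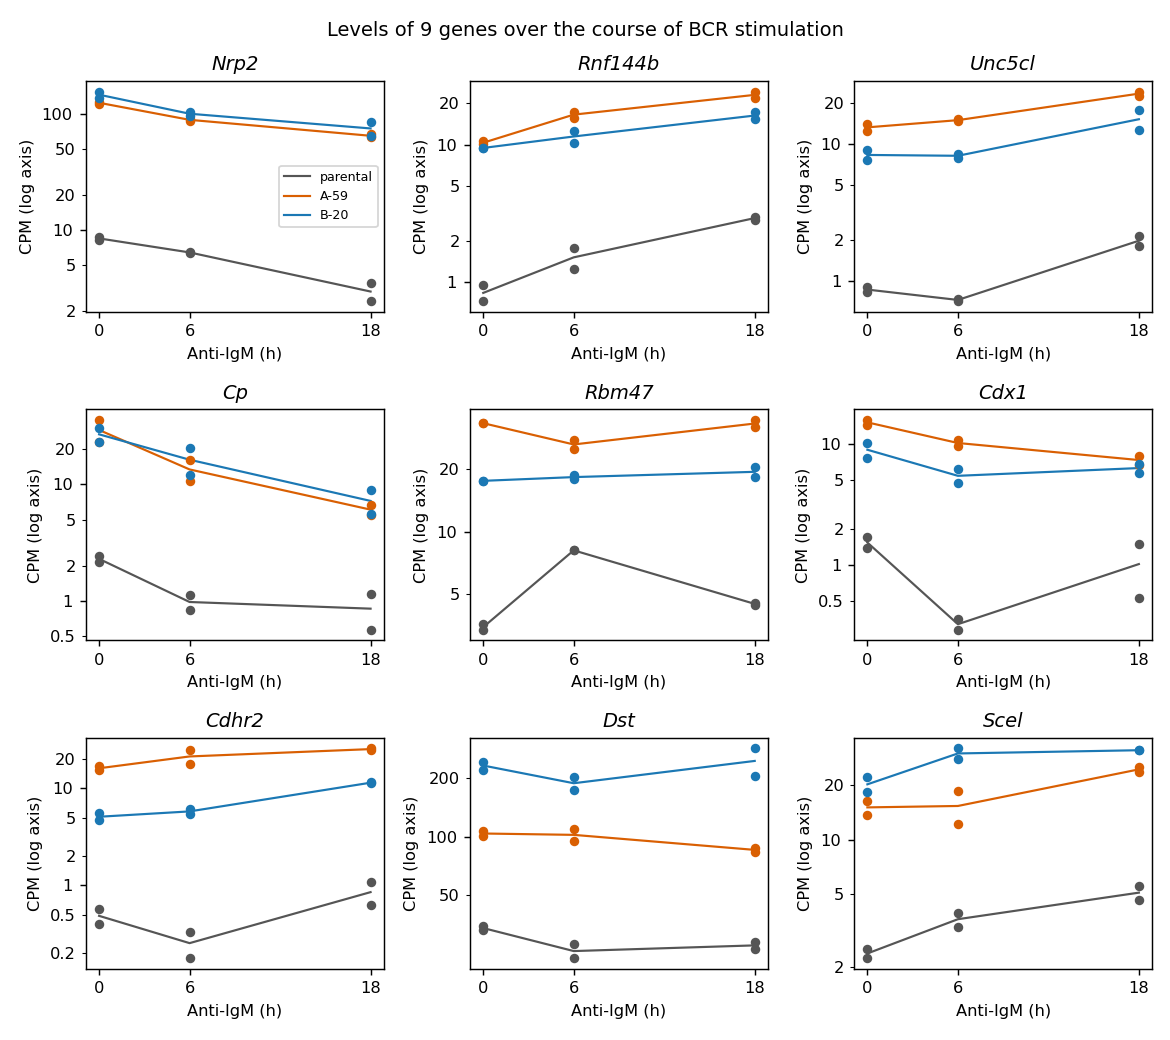
Levels of 9 of the genes over 0, 6 and 18 h of anti-IgM in CPM on a log axis, where points are single libraries, lines join the means of 2 libraries and colour gives the genotype. From 0 h to 18 h Nrp2 and Cp go down and Rnf144b and Unc5cl go up in each genotype. Rbm47 has its highest level at 6 h in parental cells and its lowest at 6 h in clone A-59, and Cdhr2, Dst and Scel show distances between the clones.

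Whether the clones responded differently from parental cells was tested directly, as the mean response of the clones minus the parental response. At 6 h 1 of the 34 genes was called, beside 0.255% of all genes. This was Rbm47. Its libraries went from 33.2 and 33.3 CPM before stimulation to 27.5 and 25 CPM after 6 h in A-59 (log2 fold change -0.37 ± 0.10, edgeR adjusted p = 0.016) and from 17.6 and 17.5 CPM to 18.7 and 17.9 CPM in clone B-20 (0.05 ± 0.11, edgeR adjusted p = 0.88). The rise seen in parental cells was therefore not matched, and the difference between responses was -1.36 ± 0.14 on the log2 scale (edgeR adjusted p = 9.6e-05). The call held in all 26 alternatives that were run, among them leaving out each library, which gave -1.42 to -1.32. At 18 h Rbm47 had 4.54 and 4.45 CPM in parental cells, 34.4 and 31.8 CPM in clone A-59 and 20.4 and 18.4 CPM in clone B-20, and the difference between responses was -0.31 ± 0.16 (edgeR adjusted p = 0.62).

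Mgat3, Cdx1 and Syne2 came close at 6 h without passing. Their differences between responses were 1.08 ± 0.27 (edgeR adjusted p = 0.057), 1.58 ± 0.45 (0.094) and 0.59 ± 0.16 (0.075). Mgat3 in A-59 went from 26.6 and 22 CPM to 25.5 and 23.3 CPM and in B-20 from 18.5 and 15.4 CPM to 14.8 and 13.7 CPM. It passed without B-20 replicate 2 of 18 h (1.07, edgeR adjusted p = 0.0098), which made the count 2, and without a filter on low counts Mgat3 and Cdx1 joined Rbm47. At 18 h 0 of the 34 genes were called by edgeR beside 0.0783% of all genes, 5 had an unadjusted p under 0.05 (14.7%, beside 8.75% of all genes), and DESeq2 called 0. For Rnf144b, the gene with the clearest rise, the difference at 18 h was -0.86 ± 0.26 (edgeR adjusted p = 0.21).

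The clones were then compared with each other, a contrast that shares no library between times. The choice of genes did not use the difference between the clones, but it used the level of every clone library. It thus set a floor under both clones, and the part of this floor in the values below was not tested. Between B-20 and A-59, 4 of the 34 genes were called at 0 h beside 3.85% of all genes, 5 at 6 h beside 5.82% and 5 at 18 h beside 4.82%. 25 of the 34 genes (73.5%) kept 1 sign at all 3 times, 11 higher and 14 lower in B-20, beside 57.3% of all genes tested. The median of the absolute log2 difference over the 34 genes was 0.54, 0.56 and 0.49 at 0, 6 and 18 h, beside 0.23, 0.32 and 0.27 over all genes.

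**Figure D4:**
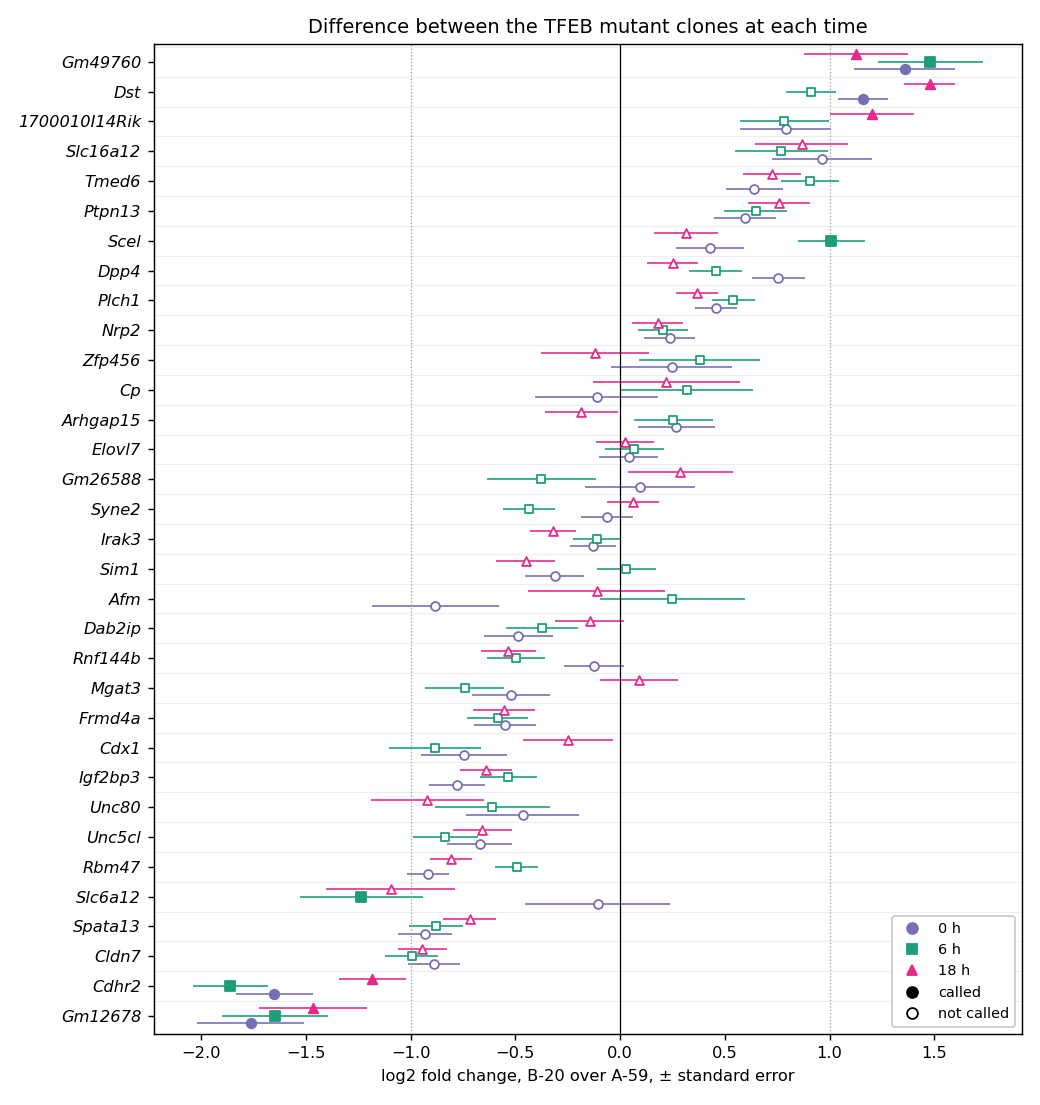
Log2 fold change of B-20 over A-59 with its standard error (edgeR) for 33 of the 34 genes at 0, 6 and 18 h, ordered by its mean. Filled points are called and dotted lines mark a log2 fold change of 1 in either direction. Gm12678 and Cdhr2 lie at the lower end and Gm49760 and Dst at the upper end at all 3 times.

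Cdhr2 and the long non-coding RNA Gm12678 were lower in B-20 at each time. Cdhr2 had 16.8 and 15.3 CPM in clone A-59 and 4.66 and 5.52 CPM in clone B-20 at 0 h, 24.6 and 17.8 CPM against 5.39 and 6.17 CPM after 6 h, and 25.6 and 24.9 CPM against 11.6 and 11.2 CPM after 18 h. Its log2 fold changes were -1.65 ± 0.18, -1.86 ± 0.18 and -1.18 ± 0.16, with edgeR adjusted p of 3.4e-06, 3.9e-07 and 2.6e-05. Gm12678 had 10.0 and 8.69 CPM in clone A-59 and 2.33 and 3.15 CPM in clone B-20 at 0 h, and its log2 fold changes were -1.76 ± 0.26, -1.65 ± 0.25 and -1.47 ± 0.26 (edgeR adjusted p = 7.4e-05, 8.3e-05 and 0.00035). These 6 calls held without each library in turn.

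Dst was higher in B-20. It had 106 and 101 CPM in clone A-59 and 243 and 220 CPM in clone B-20 at 0 h (log2 fold change 1.16 ± 0.12, edgeR adjusted p = 1.5e-06), and 87.7 and 83.3 CPM against 283 and 206 CPM after 18 h (1.48 ± 0.12, edgeR adjusted p = 5.5e-08). At 6 h, with 95.1 and 109 CPM against 203 and 173 CPM, the value of 0.91 ± 0.12 stayed under the fold limit. 1700010I14Rik had 3.24 and 2.98 CPM in clone A-59 and 7.17 and 7.52 CPM in clone B-20 at 18 h (1.2 ± 0.20, edgeR adjusted p = 0.00022). The dystonin and 1700010I14Rik calls held without each library.

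Gm49760 was higher in B-20 with log2 fold changes of 1.36 ± 0.24 at 0 h, 1.48 ± 0.25 at 6 h and 1.13 ± 0.25 at 18 h (edgeR adjusted p = 0.00058, 0.00022 and 0.0024), from 1.75 and 1.68 CPM in clone A-59 and 5.39 and 3.46 CPM in clone B-20 at 0 h. Its call at 0 h was lost without A-59 replicate 1 (edgeR adjusted p = 0.012) or B-20 replicate 1 (0.029), and at 18 h without A-59 replicate 1 (0.042), A-59 replicate 2 (0.016) or B-20 replicate 1 (0.024), with DESeq2 (0.014) and on the libraries compared alone (0.018). With GC correction the value at 6 h was 0.93 and not called. At 6 h Scel had 12.2 and 18.4 CPM in clone A-59 and 31.8 and 27.9 CPM in clone B-20 (1.01 ± 0.16, edgeR adjusted p = 0.00012), and Slc6a12 6.81 and 4.16 CPM against 2.75 and 1.84 CPM (-1.23 ± 0.29, edgeR adjusted p = 0.0036). Sciellin and the betaine transporter stood at the limits of the test. Scel dropped to 0.72 without A-59 replicate 1, to 0.93 without B-20 replicate 1 and to 0.72 with GC correction, and Slc6a12 was not called without A-59 replicate 1 (-0.82, edgeR adjusted p = 0.11), without B-20 replicate 2 (-1.02, edgeR adjusted p = 0.046) or on the libraries compared alone (edgeR adjusted p = 0.023). At 6 h 3 genes were called without A-59 replicate 1 and 9 without A-59 replicate 2, which added Dst, Tmed6, Spata13 and Cldn7.

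Below the fold limit, several genes differed between the clones with an edgeR adjusted p below 0.01 at all 3 times. B-20 had the lower values for Cldn7 (log2 fold changes of -0.89, -0.995 and -0.94 at 0, 6 and 18 h), Spata13 (-0.93, -0.88 and -0.72), Rbm47 (-0.92, -0.49 and -0.81), Unc5cl (-0.67, -0.83 and -0.66) and Igf2bp3 (-0.78, -0.53 and -0.64), and the higher values for Tmed6 (0.64, 0.91 and 0.72). A tight junction protein, a nucleotide exchange factor and a pair of RNA-binding proteins thus had more RNA in A-59. Nrp2, Irak3 and Elovl7 came out near each other in the clones, with log2 fold changes of 0.18 to 0.24, -0.32 to -0.11 and 0.02 to 0.07, and no edgeR adjusted p below 0.01. The summed epithelial markers given above were higher in A-59 than in B-20 without overlap. That sum includes Cldn7, itself higher in A-59, and a sum without Cldn7 was not tested. Medians of the myeloid sums (11.8 against 4.32 CPM) and of the fibroblast and endothelial sums (65.0 against 45.2 CPM) were higher with overlapping ranges. The part of these markers in the differences was not tested.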

How the data were processed

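Non-stranded mRNA libraries were made by the authors from total RNA of 9 groups of 2 WEHI-231 cultures and sequenced as single reads. Reads were aligned with STAR 2.5 to GRCm38 and counted per gene with featureCounts 1.5.0-p1. These steps are given in the submitters' processing notes and the study's methods. The deposited values are raw counts per Ensembl gene for each library. Replicates are described as independent experiments. Groups were taken from the labels.

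The 34 genes, their role groups, the lists of related genes and markers and the letters searched were chosen with earlier results of these data known. CPM is the count divided by the library total, times 1000000. Tests were run with edgeR 4.0.16 (TMM scaling, filterByExpr, quasi-likelihood test, 1 model of 9 groups over 18 libraries) in R 4.3.3 on 15318 genes, with adjusted p below 0.01 and a log2 fold change over 1 as the call. The script was tested on simulated data. The rule for relatives and neighbours, all 6 comparisons of a clone with parental cells called in 1 direction, was set after the comparisons were planned. Standard errors (SE) were derived from the log2 fold change and its F statistic.

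Every gene but 1, which is counted among the 34 but not reported here, was named in its role group. Values by library, or their lowest, median and highest, were given for the 10 with the largest ratio, for the 5 others with the highest clone levels, for the 5 largest called changes of each comparison and for those on the lists. Gene symbols, classes and lengths came from GENCODE and coordinates and promoter windows from RefSeq (GRCm38.p6), where 33 of the 34 symbols matched. Exact binomial intervals and the floor of 3 counts cover counting error only. Alternatives were DESeq2 1.42.0, its size factors in edgeR, other count filters, the replicate number as a block, a loess correction for GC content (known for 99.2% of tested genes), only the libraries compared, and each library left out in turn.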

Additional observations from a re-analysis of the deposited data

Results flagged for a closer look

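Rbm47 had a response to 6 h of anti-IgM that differed between the TFEB mutant clones and parental cells by the test of the difference itself. The mean log2 fold change of the clones minus that of parental cells was -1.361 ± 0.144 (SE, edgeR adjusted p = 9.6e-05). It was -1.42 to -1.32 when each library was left out in turn. No outlier test was applied, since each group held 2 libraries.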

How the results depend on the processing

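The number of genes that met the choice was 52 with a ratio of 1.5, 17 with a ratio of 3 and 62 when lowest clone and highest parental levels were matched within each time; 34 with TMM-scaled CPM, 40 with a minimum of 0.5 CPM and 23 with a minimum of 5 CPM stayed within 1.5 times, and leaving out each library in turn gave 34 to 37. Of the 32 calls in the tested comparisons, 0 reversed, 16 held in every alternative that gave an adjusted p and 17 without each library.

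Without a filter on low counts 8 of the genes were called in parental cells at 6 h and 3 in the difference between responses at 6 h. With at least 10 counts required in every library, which leaves 22 of the genes tested, 0 were called in A-59 at 6 h, 2 in A-59 at 18 h, 1 in B-20 at 18 h and 1 each between the clones at 0, 6 and 18 h. DESeq2 called 1 in A-59 at 6 h, where it gave Afm no adjusted p, and the libraries compared alone gave 0 there. GC correction gave 3 between the clones at 6 h, the cause of which was not tested, and GC correction with the replicate block also gave 3. Leaving out each library in turn gave 1 to 6 genes in parental cells at 6 h, 2 to 5 at 18 h, 0 to 3 in A-59 at 6 h, 2 to 4 at 18 h, 2 to 4 in B-20 at 18 h, 3 to 9 between the clones at 6 h and 1 to 2 in the difference between responses at 6 h. Counts over all genes moved too. For B-20 at 6 h edgeR called 59 genes, 97 without a filter and 93 with GC correction and block; for A-59 at 6 h 213, but 49 on the libraries compared alone; and for the differences between responses 39 and 12 at 6 h and 18 h, 79 and 39 without a filter, 60 and 23 with GC correction and block, 19 at 18 h with the block and 20 at 18 h by DESeq2. With at least 10 counts in every library 254 instead of 402 were called in parental cells at 6 h and 334, 521 and 416 instead of 589, 891 and 738 between the clones, since fewer genes were tested. Leaving out each library gave 240 to 411 for parental cells at 6 h, 110 to 306 for A-59 at 6 h, 27 to 66 and 401 to 1018 for B-20, 565 to 1155 between the clones at 6 h, and 17 to 54 and 3 to 12 for the differences. Where this left a group with 1 library, its spread was taken from the other groups.

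With the replicate number as a block, 7 genes were called in parental cells at 6 h, with Dab2ip, Cp and Slc6a12 added, and all 32 calls were kept. The block together with GC correction added the same genes there. GC correction alone added Dab2ip there and kept 29 of the 32 calls. Cp in parental cells at 18 h was also called with the block (-1.62, edgeR adjusted p = 0.0012). The labels tie no number to a shared experiment or day. The correlation of same-numbered libraries' deviations over the 36 pairs of groups ran from -0.16 to 0.68 and was above 0.1 in 20. Within a genotype it was 0.21 to 0.43 for the 3 pairs of parental cells and 0.31 to 0.47 for the 3 of B-20. In A-59 it was 0.68 for 0 h and 6 h, 0.32 for 0 h and 18 h and 0.09 for 6 h and 18 h. The numbers were not taken to pair all groups, so the main tests of 6 h and 18 h against 0 h also used no pairing within a genotype. With 2 libraries a group and at most 3 counts in a parental group for Afm, Slc6a12 and Gm49760, depth limits what can be said of those genes.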
